A study of Mus musculus with 56 samples.

Results

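10 genes of the heat shock response and the chaperone system were followed in the gastrocnemius muscle of 56 mice: Hspa1a, Hspa1b, Hspa8, Hsph1, Hsp90aa1, Dnajb1, Hspb1, Hspb6, Hspb7 and Cryab. They were chosen by name, and all 10 were found among the 15539 genes of the count table. The mice were C57Bl/6 on chow 5015, with 7 in each of 8 groups that crossed sex, genotype and wheel. Male controls with locked wheels are called MC here and those with running wheels MCE, and the males labelled as skeletal muscle HuR knockouts are MH and MHE. FC, FCE, FH and FHE are the females in the same order. HuR, the product of Elavl1, is an RNA-binding protein. In the knockout line Cre is driven by the promoter of the fast myosin light chain gene Myl1 (Mlc1f) and acts on floxed HuR alleles, and the controls are floxed littermates without the deletion. The labels give 5 months of age for all mice and wheels, running or locked, from 10 to 20 weeks of age. Each library was made from a whole muscle, so the counts do not separate fewer cells of a type from less RNA per cell.

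Heat shock proteins keep other proteins folded. Hsp70 proteins (Hspa1a, Hspa1b and the constitutive Hspa8) bind unfolded stretches in cycles of ATP hydrolysis that J-domain proteins such as Dnajb1 start and Hsp110 proteins such as Hsph1 reset by nucleotide exchange. Hsp90aa1 encodes the stress-inducible cytosolic Hsp90, which takes over partly folded clients. The small heat shock proteins Hspb1, Hspb6, Hspb7 and Cryab hold unfolding proteins without ATP and are abundant in striated muscle, where they associate with the Z-disc, desmin and filamin C. Heat shock factor 1 induces many of these genes by binding heat shock elements, inverted repeats of GAA and TTC blocks, and muscle contraction is known to raise several of them.

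The promoters of Hspa1a, Hspa1b and Hspb1 and 1 stretch of Hsph1 are shown because Hspa1a and Hspa1b lie near each other and moved together, while Hspb1 and Hsph1 hold more than 1 match to the core of the heat shock element. RefSeq windows on GRCm38.p6, from 250 bases before to 50 after a start site, were at hand for 7 of the 10 genes (10 windows), and none was used for Hspa8, Hsp90aa1 and Cryab. The core was searched as GAANNTTC and as TTCNNGAA, each of which reads the same on both strands, and overlapping matches were counted. Capitals mark the matches, and all sequences run 5′ to 3′ on the strand of the gene, with the 250 bases before the start site for the first 3.
Hspa1a: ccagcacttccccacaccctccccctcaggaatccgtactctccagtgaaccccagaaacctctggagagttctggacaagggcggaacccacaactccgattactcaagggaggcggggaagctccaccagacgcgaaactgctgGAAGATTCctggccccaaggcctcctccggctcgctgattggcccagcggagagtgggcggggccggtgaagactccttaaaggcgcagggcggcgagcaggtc
Hspa1b: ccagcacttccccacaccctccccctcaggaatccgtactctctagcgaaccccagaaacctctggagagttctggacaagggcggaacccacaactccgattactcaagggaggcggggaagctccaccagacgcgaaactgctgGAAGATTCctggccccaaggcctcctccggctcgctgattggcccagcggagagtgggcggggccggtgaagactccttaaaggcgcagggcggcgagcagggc
Hspb1: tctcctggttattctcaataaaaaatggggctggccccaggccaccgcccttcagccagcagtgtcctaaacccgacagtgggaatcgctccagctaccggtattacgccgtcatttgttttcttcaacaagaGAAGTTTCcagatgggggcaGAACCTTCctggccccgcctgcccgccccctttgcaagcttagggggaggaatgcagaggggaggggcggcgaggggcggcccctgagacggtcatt
Hsph1: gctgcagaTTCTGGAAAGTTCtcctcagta
The Hspa1a sequence is chr17:34972157-34972406 on the minus strand and that of Hspa1b chr17:34959239-34959488 on the minus strand. They are the same at 247 of 250 positions (98.8%), with 1 match each, which starts 104 bases before the start site. The Hspb1 sequence is chr5:135887669-135887918 on the plus strand, with matches that start 117 and 97 bases before the start site. The Hsph1 stretch is chr5:149636279-149636308 on the minus strand and covers bases 8 to 37 of the transcript from the second of 2 start sites, where a TTCNNGAA and a GAANNTTC match overlap. Another match lies 54 bases before that start site. Among all 32851 windows of this length, 15.1% held at least 1 of the motifs, 1.96% held 2 or more and 0.256% held 3 or more. A match also lies in 1 of the 2 windows of Hspb6, 120 bases before its start site, and these letters were not in the windows of Dnajb1 and Hspb7. No binding was measured here.

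Total counts ran from 6639782 to 21633091 per mouse. Levels are given as CPM, the count per 1000000 of a mouse's total, and differences as log2 fold changes from a limma fit over all 56 mice and 14321 genes, with p adjusted by Benjamini-Hochberg over those genes and a threshold of 0.05. In male running mice Elavl1 was higher, not lower, under the knockout label (0.44 ± 0.11, limma, adjusted p = 0.0242), and over the 4 genotype comparisons its mean difference was 0.13 ± 0.06 (adjusted p = 0.15). The running male controls were uneven, with 29.2, 29.7 and 38.8 CPM in MCE 10, MCE 13 and MCE 25 and 52.8 to 56.9 CPM in the others. Elavl1 counts therefore did not show the knockout that the labels give. By qPCR the paper reports less Elavl1 mRNA in the gastrocnemius of knockout mice than of controls. The labels name a library kit that reads 3′ ends, under which counts need not show a deleted exon, while the study's methods describe stranded total RNA libraries, and which of them applies is not settled here. The groups are called mice labelled HuR knockout throughout. Myl1, whose promoter drives Cre, was lower by 0.65 on the log2 scale on average in those mice (limma, adjusted p = 5.61e-05). The fall was uneven. Controls had 7932 to 12930 CPM. Labelled mice MH 8, MH 12, MHE 4, MHE 6, MHE 7, FH 30, FH 31, FH 34, FHE 3, FHE 7 and FHE 10 had 7796 to 13200 CPM. The other labelled mice had 2170 to 6355 CPM. All labelled mice are kept in the genotype comparisons, and this split was not tested. The 6 defining skeletal muscle markers were high in every mouse, with a summed level of 65490 to 88510 CPM. The summed level of 12 hepatocyte markers ran from 15.65 to 3711 CPM between mice. The list means of adipocyte, leukocyte, erythroid and fibroblast markers were higher in locked females than in locked males. 2 mice, MCE 27 and MHE 1, stood apart in the members themselves, and several results that turn on them are given with and without them.

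Hspa1a (chr17:34969190-34972156) and Hspa1b (chr17:34956436-34959238) are single-exon genes on the minus strand, 10.0 kb apart, which encode nearly the same protein. Of all 50-base stretches of the longest Hspa1a transcript, 58.8% also occur in that of Hspa1b, but 0 of the 451 within its last 500 bases do. How reads that match both were counted is not given in the sources used here, so the split between the genes is uncertain to that extent. Hspa1a ranged from 4.31 CPM (MH 11) to 70.4 CPM (MCE 27), and Hspa1b from 2.57 CPM (FC 18) to 65.2 CPM (MCE 27), on 47 to 1187 and 23 to 1100 counts. The next highest mouse for both was MHE 1, at 40.9 and 43.9 CPM. Within groups, the SD of log2 CPM was 0.70 for Hspa1a and 0.84 for Hspa1b, larger than that of 95.8% and 97.4% of the genes tested, whereas the median gene had 0.30. These were the most variable of the 10 genes. Both SDs include MCE 27 and MHE 1 and were not computed without them. They were ranked against all genes tested, not against genes of similar level. Group medians of Hspa1a lay between 6.52 CPM (FC) and 11.9 CPM (MHE) and those of Hspa1b between 3.80 CPM (FC) and 9.02 CPM (MHE), and neighbouring groups in that order overlapped widely.

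The other members varied less. After Hspa1b and Hspa1a the widest spread was that of Hspb1, with an SD of 0.53 and levels of 81.2 to 383 CPM (both extremes in locked mice, FH 13 and MC 18). Hspb7 followed with an SD of 0.46 and 74.1 to 389 CPM, Dnajb1 with 0.42 and 2.89 to 22.3 CPM, and Cryab with 0.39 and 637 to 2090 CPM. Hsp90aa1 had an SD of 0.29 and ran from 25.2 to 68.7 CPM, and Hspb6 had an SD of 0.24 and ran from 727 to 2130 CPM. Hspa8, the constitutive Hsp70, was narrow, with an SD of 0.20 and 119.5 to 248.5 CPM. Hsph1 was the narrowest, with an SD of 0.18, larger than that of 16.4% of the genes tested, and 33.5 to 63.5 CPM. MHE 1 held the highest value of Hspa8, Hsph1, Hsp90aa1 and Dnajb1.

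**Figure D1:**
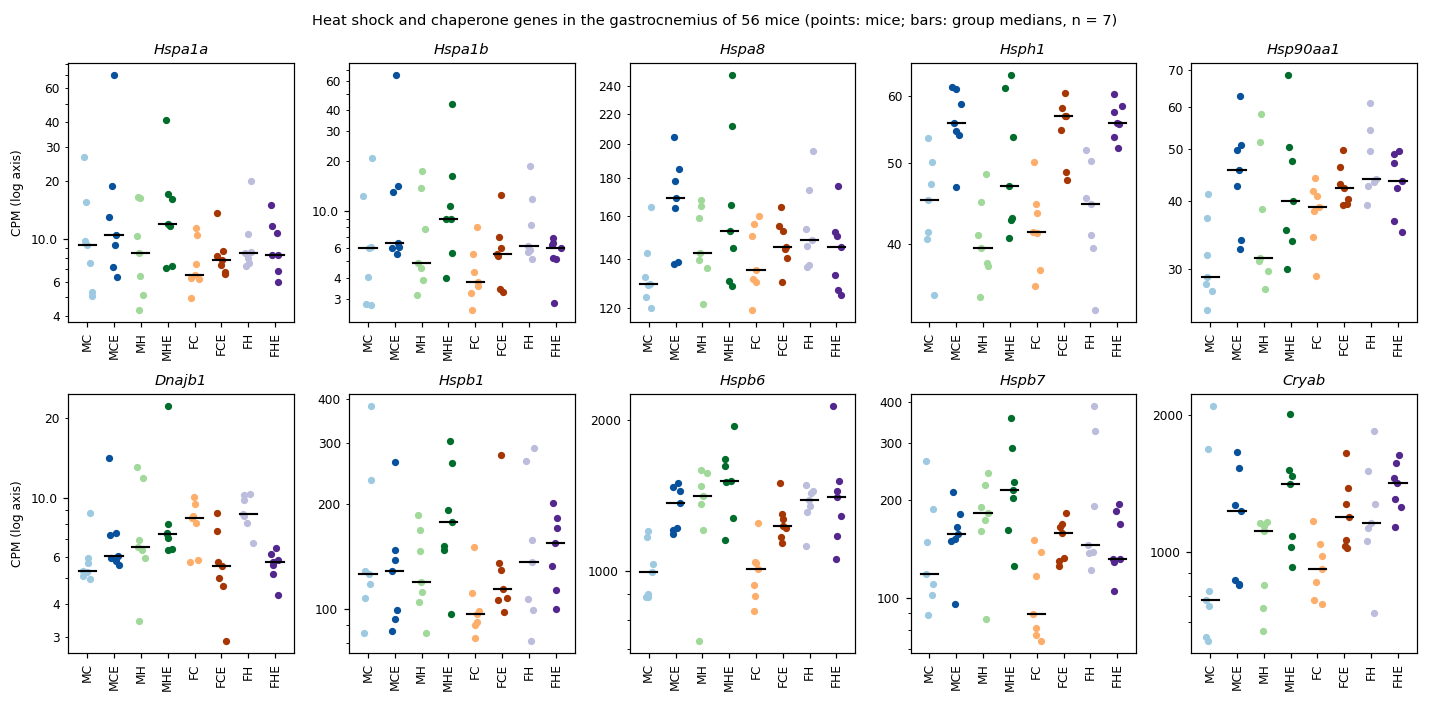
CPM of each gene (log axis) in the 7 mice of each of the 8 groups, with points for mice and bars for group medians. The points of Hsph1 lie higher in the running groups (MCE, MHE, FCE, FHE) than in their locked counterparts, those of Dnajb1 lie lower in running females, and MCE 27 and MHE 1 are the 2 highest points of Hspa1a and Hspa1b.

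The first comparison asks what a running wheel does to these genes. Hsph1, the nucleotide exchange partner of Hsp70, rose with running, by 0.29 ± 0.05 (SE) on the log2 scale as the mean of the 4 lines, or 1.22-fold (95% interval 1.14 to 1.31, limma, adjusted p = 7.63e-05). Hspb6, a small heat shock protein of muscle, rose by 0.20 ± 0.06, or 1.15-fold (adjusted p = 0.032). No member fell, and 5.96% of all genes tested passed in this comparison. Cryab, which guards desmin, came close, with 0.28 ± 0.10 and an adjusted p of 0.0681. The median of the 10 members was 0.17, and that of all genes tested was 0.01.

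In male controls Hsph1 was 34.9, 45.1 and 53.5 CPM (lowest, median and highest) with locked wheels and 46.8, 55.8 and 61.4 CPM with running wheels. In female controls the values were 35.7, 41.4 and 50.1 CPM with locked wheels against 47.7, 56.7 and 60.4 CPM with running wheels. In both sexes the groups overlapped at their edges, and all 7 running mice lay above the locked median. Males labelled HuR knockout had 34.6, 39.6 and 48.5 CPM when locked and 40.7, 46.9 and 63.5 CPM when running. Females labelled HuR knockout had 33.5, 44.7 and 51.8 CPM when locked and 52.0, 55.6 and 60.3 CPM when running. On CPM the 2 groups of those females did not overlap (exact permutation test, two-sided, p = 0.000583, unadjusted). That is the smallest p that 7 against 7 mice allow, in 1 of 120 such tests. On TMM-normalized values the 2 groups overlapped (exact permutation test, p = 0.0163). The share of all genes without overlap was not computed. The groups of labelled males overlapped on CPM. The log2 difference was 0.29 ± 0.10, 0.37 ± 0.10, 0.22 ± 0.10 and 0.30 ± 0.10 in male controls, female controls, labelled males and labelled females, and only that of female controls passed on its own (limma, adjusted p = 0.017). Without FC 12 or FCE 1 that call was lost (adjusted p up to 0.0573), and with the liver marker mean as a covariate it was 0.29 with an adjusted p of 0.124. The mean over the 4 lines passed without each of the 56 mice in turn (0.27 to 0.31) and under each of the 11 other settings tried (0.24 to 0.32). Differences of the wheel effect between sexes (0.08 ± 0.10, adjusted p = 0.659) and genotypes (-0.07 ± 0.10, adjusted p = 0.825) did not pass.

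Hspb6 was 889, 999 and 1203 CPM in locked and 1184, 1366 and 1494 CPM in running male controls. In female controls it was 834, 1011 and 1245 CPM when locked and 1138, 1230 and 1499 CPM when running. Both pairs overlapped only at the edges, with all 7 running mice above the locked median (exact permutation p = 0.00117 and p = 0.00291, two-sided, unadjusted). In labelled males the difference was 0.14 ± 0.12 and in labelled females -0.02 ± 0.12, and the difference of the wheel effect between genotypes was -0.28 ± 0.12 (limma, adjusted p = 0.37). The mean over the 4 lines did not pass without MCE 27 and MHE 1 (0.18, adjusted p = 0.0612), with the liver marker mean (0.18, adjusted p = 0.129) or the slow fibre marker mean as a covariate (0.15, adjusted p = 0.12). It was also lost without any 1 of FCE 1, FCE 26, FH 30, FHE 10, FHE 21, MC 29, MH 8, MH 9 and MHE 22 (adjusted p up to 0.0601). Beside these results, 5 of 12 hepatocyte markers were lower and 2 of 10 slow fibre markers higher with running over the 4 lines, 6 of 10 fast fibre markers were lower, and 3 of 6 endothelial markers were higher. Their part in the Hsph1 and Hspb6 results was not tested beyond the covariates.

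Hsp90aa1, the inducible Hsp90, was 25.2, 28.99 and 41.3 CPM in locked and 32.6, 45.7 and 62.7 CPM in running male controls. All 7 running mice lay above the locked median, and the groups overlapped. The rise of 0.48 ± 0.14 passed there (limma, adjusted p = 0.0458), where 3.24% of all genes did, and it was the only member to do so. It was lost without MCE 27 and MHE 1 (0.40, adjusted p = 0.0779), with the slow fibre covariate (0.44, adjusted p = 0.0746), with Hspa1a and Hspa1b counted as 1 gene (0.48, adjusted p = 0.0514), and without any 1 of MC 16, MC 17, MC 19, MC 20, MC 31, MCE 10, MCE 13, MCE 25, MCE 27 and MCE 28 (0.40 at the lowest, adjusted p up to 0.12). In the other lines the Hsp90aa1 difference was 0.16 ± 0.15 in female controls, 0.12 ± 0.14 in labelled males and -0.20 ± 0.14 in labelled females. In female controls Hsph1 was the only member called, against 8.74% of all genes. No member was called in labelled males, where 0.0419% of all genes were, or in labelled females, where 3.85% were. By direction, 9 of 10 members were above 0 in male controls, 9 in female controls, 10 in labelled males and 2 in labelled females, with medians of 0.29, 0.34, 0.23 and -0.15 against 0.02 or less for all genes.

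**Figure D2:**
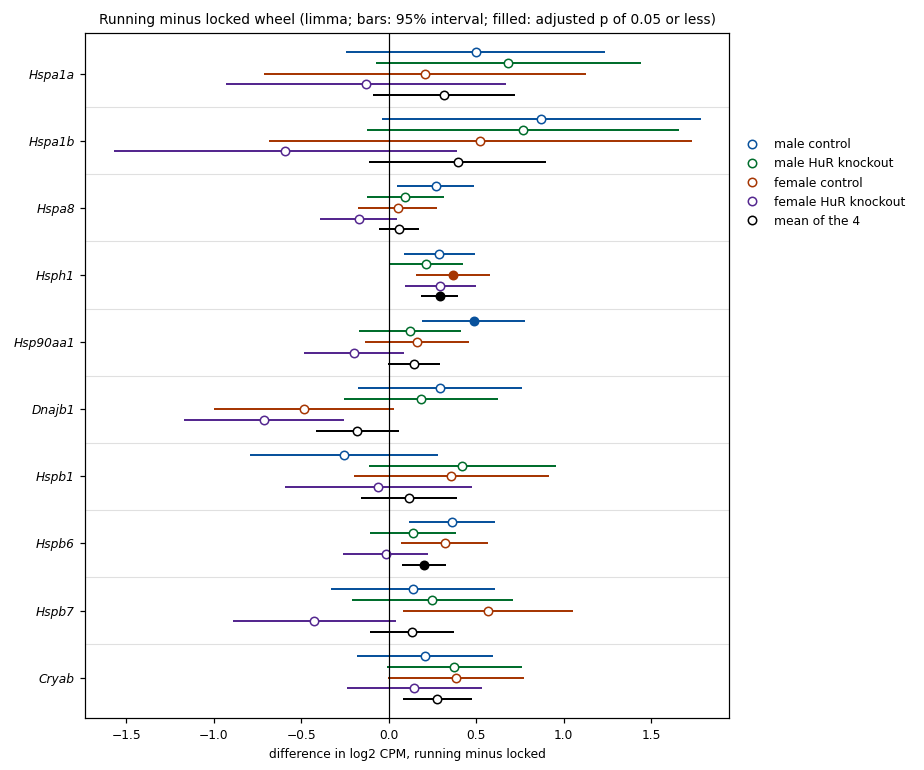
Log2 difference between running and locked wheels (horizontal axis, running minus locked) for each gene in the 4 lines and as their mean, with 95% intervals from limma and filled points where the adjusted p was 0.05 or less. The 5 points of Hsph1 all lie right of 0, and those of Dnajb1 lie right of 0 in males and left of 0 in females.

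Hspa1a and Hspa1b showed no wheel effect beyond the spread between mice. Their mean differences were 0.31 ± 0.20 (95% interval -0.09 to 0.72) and 0.39 ± 0.25 (-0.11 to 0.89), with adjusted p of 0.409 and 0.407. Without MCE 27 and MHE 1 they were 0.13 (limma, adjusted p = 0.691) and 0.18 (adjusted p = 0.654). In male controls, the group of MCE 27, the differences of 0.50 ± 0.37 and 0.87 ± 0.45 went to 0.07 and 0.41 without the 2 mice. The medians of the running males were 10.5 (MCE) and 11.9 CPM (MHE) for Hspa1a against 9.34 (MC) and 8.46 CPM (MH) in locked males, while the ranges overlapped widely. Hspb1 (0.12 ± 0.13), Hspb7 (0.13 ± 0.12) and Hspa8 (0.06 ± 0.05) did not pass either.

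Dnajb1, the J-domain partner that hands clients to Hsp70, was the 1 member whose wheel effect differed between the sexes. In locked females it was 5.76, 8.39 and 10.1 CPM in controls and 6.76, 8.75 and 10.3 CPM under the knockout label. In running females it was 2.89, 5.53 and 8.81 CPM in controls and 4.31, 5.76 and 6.47 CPM under the label. The running labelled females all lay below the locked ones without overlap (exact permutation test, two-sided, p = 0.000583, the smallest possible, 1 of 120 tests, unadjusted). The p was the same on TMM-normalized values, and the share of all genes without overlap was not computed. Among controls the groups overlapped, with 1 of 7 running mice above the locked median. In males the medians went the other way. Locked males had 4.98, 5.31 and 8.82 CPM as controls and 3.44, 6.53 and 13.1 CPM under the label, and running males had 5.59, 6.08 and 14.2 CPM and 6.36, 7.34 and 22.3 CPM. The male groups overlapped, and their highest running values were those of MCE 27 and MHE 1.

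The log2 differences of Dnajb1 with running were -0.48 ± 0.25 in female controls, -0.71 ± 0.23 in labelled females (adjusted p = 0.0609), 0.29 ± 0.23 in male controls and 0.19 ± 0.22 in labelled males. None of the 4 passed alone, but their difference between the sexes, -0.84 ± 0.23 (95% interval -1.30 to -0.37), did (limma, adjusted p = 0.0104). Of all genes tested, 13.7% passed in that comparison, so 1 of 10 members is near the background. The Dnajb1 call held without each of the 56 mice in turn (-0.91 to -0.70) and under each of the 11 other settings, including without MCE 27 and MHE 1 (-0.61, adjusted p = 0.0171). The labelled female difference alone passed without those 2 mice (-0.71, adjusted p = 0.00929), without FH 13 (-0.79, adjusted p = 0.037) and under DESeq2 (-0.74, adjusted p = 0.0417). Counts of Dnajb1 were low, 31 to 310 per mouse. In the same comparison of the sexes 6 of 6 fibroblast, 5 of 8 leukocyte, 4 of 10 adipocyte and 4 of 5 erythroid markers passed with a wheel effect that was lower in females, and their part in the Dnajb1 result was not tested.

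The second comparison sets mice labelled HuR knockout against controls. Hspb6 and Hspb7, both small heat shock proteins of striated muscle, were higher under the label as the mean over sex and wheel, by 0.23 ± 0.06 or 1.17-fold (limma, adjusted p = 0.00752) and by 0.36 ± 0.12 or 1.28-fold (adjusted p = 0.0321). These 2 of 10 members stand against 11.8% of all genes that passed. The median of the 10 was 0.13 and that of all genes 0.01. Cryab (0.13 ± 0.10), Hspb1 (0.19 ± 0.13) and the 6 members of the other families (-0.11 to 0.20) did not pass.

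In locked females Hspb6 was 834, 1011 and 1245 CPM in controls and 1124, 1384 and 1483 CPM under the label. The 2 groups overlapped at the edge, with all 7 labelled mice above the control median (exact permutation p = 0.00117, two-sided, unadjusted). In locked males it was 889, 999 and 1203 CPM in controls and 727, 1412 and 1592 CPM under the label, where MH 8 was the lowest of all 56 mice and the groups overlapped. The log2 differences were 0.41 ± 0.12 in locked females, 0.32 ± 0.12 in locked males, 0.10 ± 0.12 in running males and 0.07 ± 0.12 in running females, and none passed alone (limma, adjusted p = 0.0996, 0.162, 0.752 and 0.859). Without MH 8 the difference of locked males was 0.46 and passed (adjusted p = 0.0131).

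Hspb7 was 74.1, 89.5 and 151.5 CPM in locked female controls and 122.3, 145.8 and 389 CPM in locked labelled females. The groups overlapped, again with 7 of 7 labelled mice above the control median (exact permutation p = 0.0111, two-sided, unadjusted). That difference, 0.87 ± 0.24, did not pass (limma, adjusted p = 0.0736), nor did those of 0.29 ± 0.23 in locked males, 0.40 ± 0.23 in running males and -0.12 ± 0.23 in running females (adjusted p = 0.567, 0.408 and 0.875). The difference of locked females passed without FH 19 (0.97, adjusted p = 0.0499) or FH 30 (0.94, adjusted p = 0.0388). The Hspb7 mean over the 4 comparisons was lost without any 1 of MC 31, MCE 10 and MHE 22 (adjusted p up to 0.0531).

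Slow fibre markers moved with the label. Of the 10, 8 passed with a higher level under it, and their summed level had medians of 1021 CPM in MC against 1492 CPM in MH, 1366 in MCE against 2139 in MHE, 1719 in FC against 2404 in FH and 2005 in FCE against 2712 in FHE. With their mean as a covariate the genotype difference was 0.08 for Hspb6 (adjusted p = 0.739) and 0.24 for Hspb7 (adjusted p = 0.592), and 0 of 14321 genes passed in that comparison. Of 6 Schwann cell markers, 3 were also higher, and their part was not tested. No member was called in single genotype comparisons, where 1.15% of all genes passed in locked males, 0.384% in locked females, 2.63% in running males and 0% in running females (1807 at an unadjusted p under 0.05 by limma). Neither was a member called for a wheel effect that differed between genotypes or a genotype effect that differed between sexes, where 0.00698% of genes passed in each (1613 and 1104 at an unadjusted p under 0.05).

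**Figure D3:**
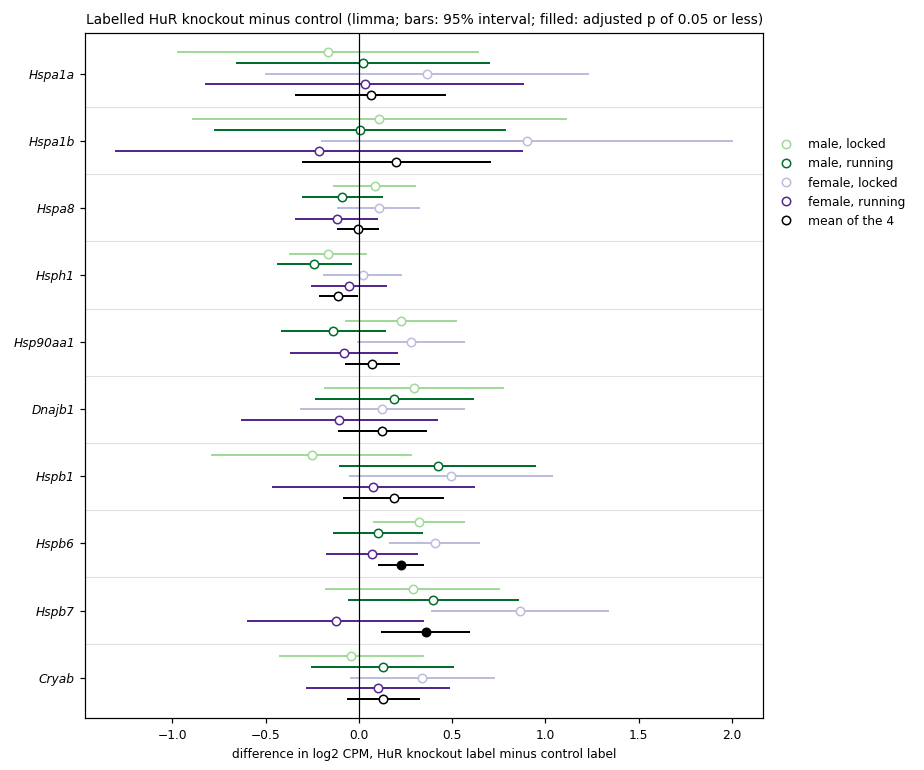
Log2 difference between mice labelled HuR knockout and controls (horizontal axis, labelled minus control) for each gene in the 4 combinations of sex and wheel and as their mean, with 95% intervals from limma and filled points where the adjusted p was 0.05 or less. The filled points are the means of Hspb6 and Hspb7.

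The third comparison is of females with males. Averaged over genotype and wheel, 2 of 10 members passed, both lower in females: Hspb7 at -0.30 ± 0.12 or 0.811-fold (limma, adjusted p = 0.0379) and Hspa8 at -0.14 ± 0.05 or 0.91-fold (adjusted p = 0.0444). Of all genes tested, 33% passed. No member was called within locked controls (21.5% of all genes), locked labelled mice (19.3%), running controls (7.65%) or running labelled mice (5.57%). In running labelled mice Dnajb1 stood at 5.76 CPM in the median female and 7.34 CPM in the median male, or -0.67 ± 0.23 (adjusted p = 0.073).

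Neither sex call held under every setting. Hspb7 was lost under DESeq2 (adjusted p = 0.0523), under upper-quartile normalization (limma, adjusted p = 0.0552) and without MCE 27 and MHE 1 (adjusted p = 0.0814). Hspa8 was lost under upper-quartile normalization (limma, adjusted p = 0.0867), with the slow fibre covariate (adjusted p = 0.051) and without those 2 mice (adjusted p = 0.121). Leaving out 1 mouse ended the Hspb7 call for 20 of 56 mice (FC 16, FC 18, FC 20, FCE 1, FCE 27, FH 13, FH 17, FH 19, FH 30, FHE 10, FHE 2, FHE 7, MC 17, MC 18, MC 19, MCE 27, MH 23, MH 24, MHE 1 and MHE 22, adjusted p up to 0.0665). It ended the Hspa8 call for 27 of 56 (FC 15, FC 16, FC 18, FC 20, FCE 27, FCE 28, FCE 9, FH 13, FH 14, FH 17, FH 19, FH 30, FHE 2, FHE 7, FHE 8, MC 18, MC 20, MCE 10, MCE 25, MCE 27, MCE 28, MH 12, MH 15, MH 23, MH 24, MHE 1 and MHE 2, adjusted p up to 0.0795). Hspa1a and Hspa1b were -0.42 ± 0.20 and -0.58 ± 0.25 in females, with adjusted p of 0.101 and 0.0699 by limma, and passed under edgeR's quasi-likelihood test (-0.69, adjusted p = 0.00573, and -0.92, adjusted p = 0.00217) and DESeq2 (-0.69, adjusted p = 0.00358, and -0.93, adjusted p = 8.89e-04). Without MCE 27 and MHE 1 the Hspa1a difference was -0.24 by limma (adjusted p = 0.221) and -0.36 by edgeR's quasi-likelihood test (adjusted p = 0.0654), and that of Hspa1b was -0.37 by limma (adjusted p = 0.129) and -0.52 by edgeR, where it passed (adjusted p = 0.0315). Slow fibre markers (9 of 10), fibroblast (6 of 6), erythroid (5 of 5), adipocyte (7 of 10) and leukocyte markers (6 of 8) were higher in females. Of the adipocyte markers, 1 was lower. Of the defining skeletal muscle markers 4 of 6 were lower in females (median of the list -0.18), as were 5 of 10 fast fibre markers (median -0.16), and the part of these markers was not tested beyond the covariates.

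The members were set beside 92 further genes, 88 of which were tested. They were written down as chaperones, cochaperones, heat shock factors and their other targets, and cold-inducible genes. A separate list, not counted in the 88, held 7 muscle proteins that chaperones bind. With running, as the mean of the 4 lines, 9 of the 88 were higher and 3 lower (13.6%, against 5.96% of all genes). Among the rises were Bag3, the cochaperone that joins Hsp70 to small heat shock proteins (0.29 ± 0.05, limma, adjusted p = 2.98e-05), and Hspa4l, another Hsp110 gene (0.28 ± 0.08, adjusted p = 0.0231). In the list of muscle proteins, outside the 88, the Z-disc protein Actn2 (0.29 ± 0.06) and titin, Ttn (0.28 ± 0.08), rose as well. The mitochondrial Hsp90 gene Trap1 (-0.15 ± 0.04), the heat shock factor inhibitor Hsbp1 (-0.14 ± 0.04) and Bag1 (-0.11 ± 0.03) passed with lower levels. Actn3 (-0.20 ± 0.05), of the muscle protein list, was lower too. Of 15 other genes that heat shock factor 1 is known to raise, 5 were higher and 0 lower, among them Hsp90ab1 (0.12 ± 0.04, adjusted p = 0.0336) and Stip1 (0.14 ± 0.04, adjusted p = 0.0357). Of 12 other J-domain genes and 15 chaperones of the endoplasmic reticulum, 0 passed in either direction by limma. Hsf1 itself did not pass (0.05 ± 0.07, adjusted p = 0.761).

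Under the knockout label 7 of the 88 were higher and 5 lower (13.6%, against 11.8% of all genes). Hspb3, a further muscle small heat shock protein (0.42 ± 0.09, limma, adjusted p = 4.86e-04), was higher, as was Pdia6 (0.18 ± 0.05). In the muscle protein list, outside the 88, the slow myosin Myh7 (0.55 ± 0.10), filamin C, Flnc (0.35 ± 0.11), and Actn2 (0.32 ± 0.06) were higher. Within the 88, Ahsa1 (-0.17 ± 0.05), St13 (-0.16 ± 0.04), Smyd1 (-0.13 ± 0.04) and the J-domain genes Dnajb2 (-0.16 ± 0.05) and Dnajc5 (-0.12 ± 0.03) were lower. In females against males 15 of the 88 were higher and 21 lower (40.9%, against 33%). Chaperones of the endoplasmic reticulum were higher in 9 of 15 and lower in 0, for example Sdf2l1 (0.45 ± 0.11), Pdia4 (0.38 ± 0.09), Pdia3 (0.35 ± 0.05) and Serpinh1 (0.35 ± 0.08), the collagen chaperone. Among those lower in females were Fkbp5 (-0.68 ± 0.11), an Hsp90 cochaperone induced by glucocorticoids and androgens, and Hspb8 (-0.53 ± 0.09), the small heat shock partner of Bag3. The structural genes Ttn (-0.49 ± 0.08), Flnc (-0.46 ± 0.11) and Des (-0.44 ± 0.06), of the muscle protein list, were lower too. For the wheel effect that differed between the sexes, 2 of the 88 were higher and 11 lower in females (14.8%, against 13.7%).

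Within groups most members moved together. After the group means were removed, 44 of the 45 pairs had a positive Pearson's r over the 56 mice. The share among pairs of other genes was not computed, so this is not shown to be particular to the members. The closest pair was Hspa1a and Hspa1b, with r = 0.90 and Spearman's rho = 0.80 (permutation p = 1e-05 for both, the smallest that 100000 permutations give, adjusted over the 45 pairs 3.7e-05 and 4.1e-05), and r = 0.85 without the 2 mice farthest from the median. Hspb1 and Cryab followed, with r = 0.82 and rho = 0.80 (r = 0.80 without the 2 farthest mice, permutation p = 1e-05, adjusted 3.7e-05). Hspb1 and Hspb7 had r = 0.75 and rho = 0.73, and Hspb7 and Cryab r = 0.72 and rho = 0.76 (0.75 and 0.73 without the 2 farthest, permutation p = 1e-05 each, adjusted 3.7e-05). Across families Hspa1a and Hspb1 had r = 0.70 and rho = 0.64 (0.65 without the 2 farthest, permutation p = 1e-05, adjusted 3.7e-05).

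The 6 pairs of small heat shock genes had r from 0.33 to 0.82 with a median of 0.70, and all 6 passed an adjusted permutation p of 0.05. The 15 pairs among the Hsp70, Hsp110, Hsp90 and J-domain genes had r from 0.14 to 0.90 with a median of 0.59, and 11 passed. Hsph1 passed with the fewest of the other members. Its r was 0.20 with Hspa1a, 0.28 with Hspa8, 0.03 with Hspb7 and -0.17 with Hspb6, and Spearman's rho was 0.15, 0.22, -0.02 and -0.10 (permutation p of r from 0.099 to 0.85). It passed with Cryab, at r = 0.37 and rho = 0.28 (permutation p = 0.017, adjusted 0.024), and with Hsp90aa1, at r = 0.36 and rho = 0.27 (permutation p = 0.021, adjusted 0.027), but not with Hspb1, at r = 0.29 and rho = 0.25 (permutation p = 0.061, adjusted 0.079). Part of the tie rests on MCE 27 and MHE 1. Without them the median of the 15 pairs was 0.37, that of the 6 small heat shock pairs 0.69, and Hspa1a with Dnajb1 went from 0.59 to 0.38. All values of a mouse come from 1 library and share its total count.

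**Figure D4:**
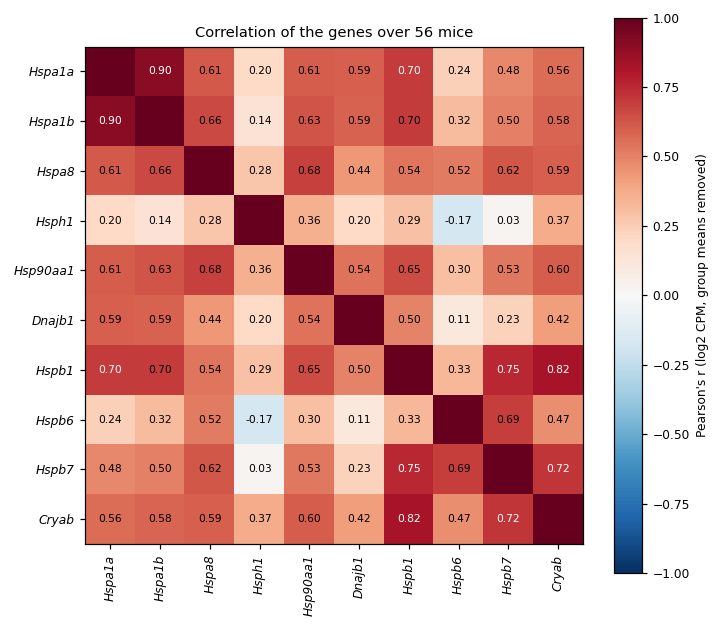
Pearson's r between each pair of genes over the 56 mice on log2 CPM with group means removed (color scale from -1 to 1). The small heat shock genes Hspb1, Hspb7 and Cryab form a block of 0.72 to 0.82, Hspa1a and Hspa1b stand at 0.90, and the row of Hsph1 is the palest.

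Over all 14311 other genes tested, those most like the mean of the 4 small heat shock genes across the 56 mice were Lmcd1 (r = 0.90), Klhl40 (0.88), Mustn1 (0.87), Enah (0.85) and Rnf115 (0.84). Most like the mean of the other 6 members were Otud1 (r = 0.77), Xirp1 (0.76), Lmcd1 (0.75), the J-domain gene Dnaja1 (0.70) and Atf3 (0.69). These r describe 56 libraries with group means removed and were not tested.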

How the data were processed

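The authors deposited 1 table of raw counts, whole numbers of reads per gene for 56 mice, without normalization. No listed gene has a total below 168 over all mice, so low genes were left out of the table by the authors. The labels' processing notes name GRCm38 (mm10), R 4.0.3 and edgeR 3.38.4, and the aligner is not given in the sources used here. The labels describe a Quant-Seq kit for 3′ ends with 50-base forward reads, whereas the paper describes stranded total RNA libraries with paired reads, and the counts were used as they are. Hspb2 overlaps the 5′ end of Cryab by 1030 bases on the opposite strand. Reads there could be shared only if strand was ignored in counting.

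Counts were TMM-normalized (edgeR 4.0.16), filtered with filterByExpr (14321 genes kept) and tested with voom and limma (3.58.1, R 4.3.3) over all 8 groups of 7, with Benjamini-Hochberg over the genes tested and a threshold of 0.05. Errors of log2 differences are SE. CPM uses the library total. Exact permutation tests (3432 arrangements) compared the means of log2(CPM + 0.5), and correlations used 100000 permutations within groups. Groups came from the labels, and p-values measure the spread between mice. Alternatives were edgeR's quasi-likelihood test, DESeq2 1.42.0, its size factors, upper-quartile normalization, no filter, sample quality weights, a replicate block, marker covariates, Hspa1a and Hspa1b summed, the 2 compared groups alone and each mouse left out in turn. Omission of MCE 27 and MHE 1, by limma and for the sexes also by edgeR and DESeq2, was chosen after seeing the data. The fits were tested on simulated data.

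The members, gene lists and tests were chosen with earlier results of these data known. Beside the members, the text names Elavl1, Myl1 and the 5 genes most like each family. It also names up to 5 called genes in each direction of the chaperone and muscle protein lists, by size of change in each averaged comparison. Hsp90ab1, Stip1 and Hsf1 were named after their values were seen. A result of 1 gene that this rule names is not reported here.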

Additional observations from a re-analysis of the deposited data

Results flagged for a closer look

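Of 80 sets of 7 values (10 genes in 8 groups), 15 had a highest or lowest mouse far from the others by Dixon's criterion on CPM. Chance gives about 4 for normally distributed values. CPM were not put on a log scale here, so 4 is only a rough yardstick for them. MCE 27 was the highest of its group, with the nearest other mouse in parentheses, for Hspa1a at 70.35 CPM (18.68), Hspa1b at 65.2 CPM (14.07), Dnajb1 at 14.22 CPM (7.406) and Hspb1 at 263.8 CPM (147.9). MHE 1 was the highest for Hspa1a at 40.94 CPM (16.99), Hspa1b at 43.89 CPM (16.11) and Dnajb1 at 22.31 CPM (7.975). FCE 28 was the highest for Hspa1a at 13.68 CPM (8.617), Hspa1b at 12.48 CPM (7.014) and Hspb1 at 276.7 CPM (135.5). Single values stood apart in FH 31 for Hspa1a at 19.94 CPM (10.66), in FHE 10 for Hspa1b, the lowest at 2.838 CPM (5.164), in MC 29 for Dnajb1 at 8.819 CPM (5.947), in FC 33 for Hspb1 at 150.5 CPM (111.1) and in FHE 21 for Hspb6 at 2130 CPM (1509). Of the 15, 10 are of MCE 27, MHE 1 and FCE 28, and values of 1 mouse come from 1 library, so they are not independent. The wheel effect of Dnajb1 differed between females and males by -0.84 on the log2 scale (limma, adjusted p = 0.0104). Causes were not tested.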

How the results depend on the processing

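Dnajb1 between the sexes and Hsph1 over the 4 lines passed under every setting run and without each mouse, and Hspb6 by genotype under all but the slow fibre covariate. No called member changed sign. Counts of members called differed from those reported as follows, and the cause was not tested. DESeq2 called 2 with the wheel in male controls, 1 in labelled females, 2 by genotype in locked females, 1 by sex in locked controls, 2 in running controls and 2 in running labelled mice. It called 3 by sex over all (Hspa8, Hspa1a and Hspa1b), of which Hspa8 is 1 of the 2 reported. edgeR's quasi-likelihood test called 1, 1, 2 and 1 in the last 4 of these and 4 by sex over all. Sample quality weights called 4 with the wheel in male controls, 2 in female controls and 1 in labelled females, 1 by genotype in locked males and in running males, 1 by sex in locked controls and 4 over all. The liver covariate called 0 in female controls, 1 in labelled females and 1 over the 4 lines with the wheel, 4 by sex in running labelled mice and over all, and 2 for the wheel by sex. The slow fibre covariate called 0 with the wheel in male controls and 1 over the 4 lines, 0 by genotype, and by sex 1 in running controls, 1 in running labelled mice and 4 over all. The 2 groups alone gave 2 with the wheel in male controls, 4 in female controls and 1 in labelled females, and 1 by sex in running labelled mice. Hspa1a and Hspa1b summed gave 0 in male controls, and upper-quartile normalization 0 by sex over all. Without MCE 27 and MHE 1 the counts were 0 in male controls, 1 in labelled females and 0 by sex over all, where edgeR and DESeq2 without these mice each called 1 (Hspa1b).

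With 1 mouse left out the members called ran from 0 to 1 with the wheel in male controls, female controls and labelled females, 1 to 3 over the 4 lines, 0 to 1 by genotype in locked males and in locked females, 1 to 2 over all, 0 to 1 by sex in locked controls and in locked labelled mice, 0 to 2 in running labelled mice, 0 to 3 over all, and 1 to 1 for the wheel by sex; all other counts stayed at 0. Gains came for Cryab with the wheel without FH 31, FH 34, MC 18, MC 19 or MHE 7 (adjusted p from 0.0179), for Hspa1b by sex without FCE 28, FH 31 or MHE 7, and for single members without FH 13, FH 19, FH 30, FH 34, MC 17, MH 8, MH 9, MHE 6 or MHE 7. Of the 120 exact tests of 2 groups, 22 had p of 0.05 or less before adjustment (18.3%), against 19.5% of all genes by limma in the same comparisons. Of the 45 correlations 34 passed, 35 on voom values and 29 without the 2 mice. Mouse numbers shared by males and females did not pair the mice (4 of 12 pairs with r over 0.1, -0.205 to 0.218), and with a replicate block the members called stayed at 9 over the 18 comparisons, with Hsph1 over the 4 lines at 0.29. Depth limits Hspa1b and Dnajb1 most, with as few as 23 and 31 counts.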
